A study of Mus musculus with 32 samples.

Results

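The Notch pathway genes examined here were the receptors Notch1, Notch2 and Notch3, the DNA-binding factor Rbpj and the target genes Hes1, Nrarp, Dtx1 and Ptcra. The 8 genes were chosen by name among 21951 protein-coding genes, and every peak within 50 kb of the transcription start site (TSS) of each gene record was taken (mm10, which is GRCm38). This gave 510 of the 338060 peaks in the 24 peak lists. Peaks of 1 target that overlapped by at least 1 bp were joined across lists into regions. The genes had 42 of 23856 Ikaros regions, 24 of 15358 CHD4 regions and 33 of 39309 regions of histone H3 lysine 27 acetylation (H3K27ac).

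The libraries came from the murine pre-B line B3, into which HA-tagged Ikaros (IKZF1) fused to ERt2 had been brought by retrovirus. All groups carried this transgene, and ERt2 is used to hold a fusion outside the nucleus until its ligand 4-hydroxytamoxifen (4-OHT) is given. The 0 h Ikaros lists were not empty and held 7822 and 9527 peaks. Cultures were untreated (0 h) or received 500 nM 4-OHT for 30 min, 1 h or 2 h, and HA-Ikaros, CHD4 and H3K27ac were each mapped by ChIP-seq in 2 replicates per time. The Ikaros antibody reads the tagged protein only, the sources used here do not say whether the cells are 1 clone, and no group received 4-OHT without the transgene, so drug and Ikaros cannot be told apart. Nothing says that the replicates came from separate cultures, so p-values measure the spread between these libraries, which may be technical.

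Notch receptors are cut after a ligand on a neighbouring cell binds them, and the freed intracellular part joins RBPJ on DNA to switch on target genes. The pathway drives precursors into the T cell lineage and is held low in B cell precursors. Ikaros is a zinc finger protein that binds near GGGA and GGAA words, is known to repress Notch target genes in lymphocytes, and works with NuRD, the complex whose remodelling subunit is CHD4.

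The bases under Ikaros summits of regions named below are shown for Notch1, Notch3, Rbpj, Hes1 and Dtx1, as sites where the tagged protein was mapped. None are shown for Notch2, Nrarp or Ptcra. Each line gives 101 bases of the forward strand of GRCm38, 50 on either side of the summit in the library with the highest fold, and capitals mark GGAA or GGGA on either strand. Summits of the same region differed between lists, over 1625 bp at Hes1 and over 87 to 411 bp at the other regions shown.
Notch1, intron, called in all 8 lists, chr2:26507952-26508052: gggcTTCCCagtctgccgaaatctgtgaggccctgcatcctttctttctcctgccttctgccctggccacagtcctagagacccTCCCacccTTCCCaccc
Notch1, intron, called at 2 h, chr2:26493084-26493184: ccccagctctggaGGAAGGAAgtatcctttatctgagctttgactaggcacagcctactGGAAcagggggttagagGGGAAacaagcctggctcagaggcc
Notch3, coding exon, chr17:32164152-32164252: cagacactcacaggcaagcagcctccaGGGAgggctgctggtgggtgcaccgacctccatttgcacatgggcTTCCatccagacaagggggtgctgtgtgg
Rbpj, intron, chr5:53490884-53490984: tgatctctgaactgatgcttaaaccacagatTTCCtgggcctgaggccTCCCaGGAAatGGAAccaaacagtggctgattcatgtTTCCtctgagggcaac
Hes1, just upstream of the TSS, chr16:30063979-30064079: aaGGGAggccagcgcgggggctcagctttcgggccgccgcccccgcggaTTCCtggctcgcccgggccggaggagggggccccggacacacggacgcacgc
Dtx1, intron, called in all 8 lists, chr5:120704637-120704737: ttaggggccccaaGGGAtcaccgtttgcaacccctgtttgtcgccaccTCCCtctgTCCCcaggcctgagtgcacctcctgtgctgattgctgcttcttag
Dtx1, intron, absent at 0 h, chr5:120706630-120706730: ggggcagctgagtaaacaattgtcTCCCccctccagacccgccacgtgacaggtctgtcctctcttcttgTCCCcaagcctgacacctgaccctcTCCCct

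The word TGGGAA, the core that Ikaros is known to bind, was searched on both strands within 100 bp of each summit. It overlaps GGGA and GGAA, which were counted too. TGGGAA was found at 11 of the 42 Ikaros regions near the genes (26.2%) and at 23.3% of all Ikaros regions. GGAA stood at 88.1% against 95.2% of all regions, and GGGA at 95.2% against 92.7%. The all-list Notch1 region shown first held 2 copies of TGGGAA. A word is a match of letters and does not show a bound site.

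Pre-B identity was checked by promoter acetylation. All 8 pre-B marker genes had an H3K27ac peak within 1 kb of a TSS in all 8 lists, 0 of 7 T cell markers had one in any list, and 4 of 5 myeloid markers had none. The lists held 5373 to 14874 Ikaros, 2488 to 9593 CHD4 and 21468 to 33664 H3K27ac peaks. They give no read counts. The background coverage recovered from fold and p was 1.98 to 3.40 fragments per base for Ikaros, with the 0 h lists at 3.40 and 2.70, and 2.69 to 3.75 for H3K27ac, after the caller's scaling to the smaller of library and input. That of the broad CHD4 lists was not computed.

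**Figure D1:**
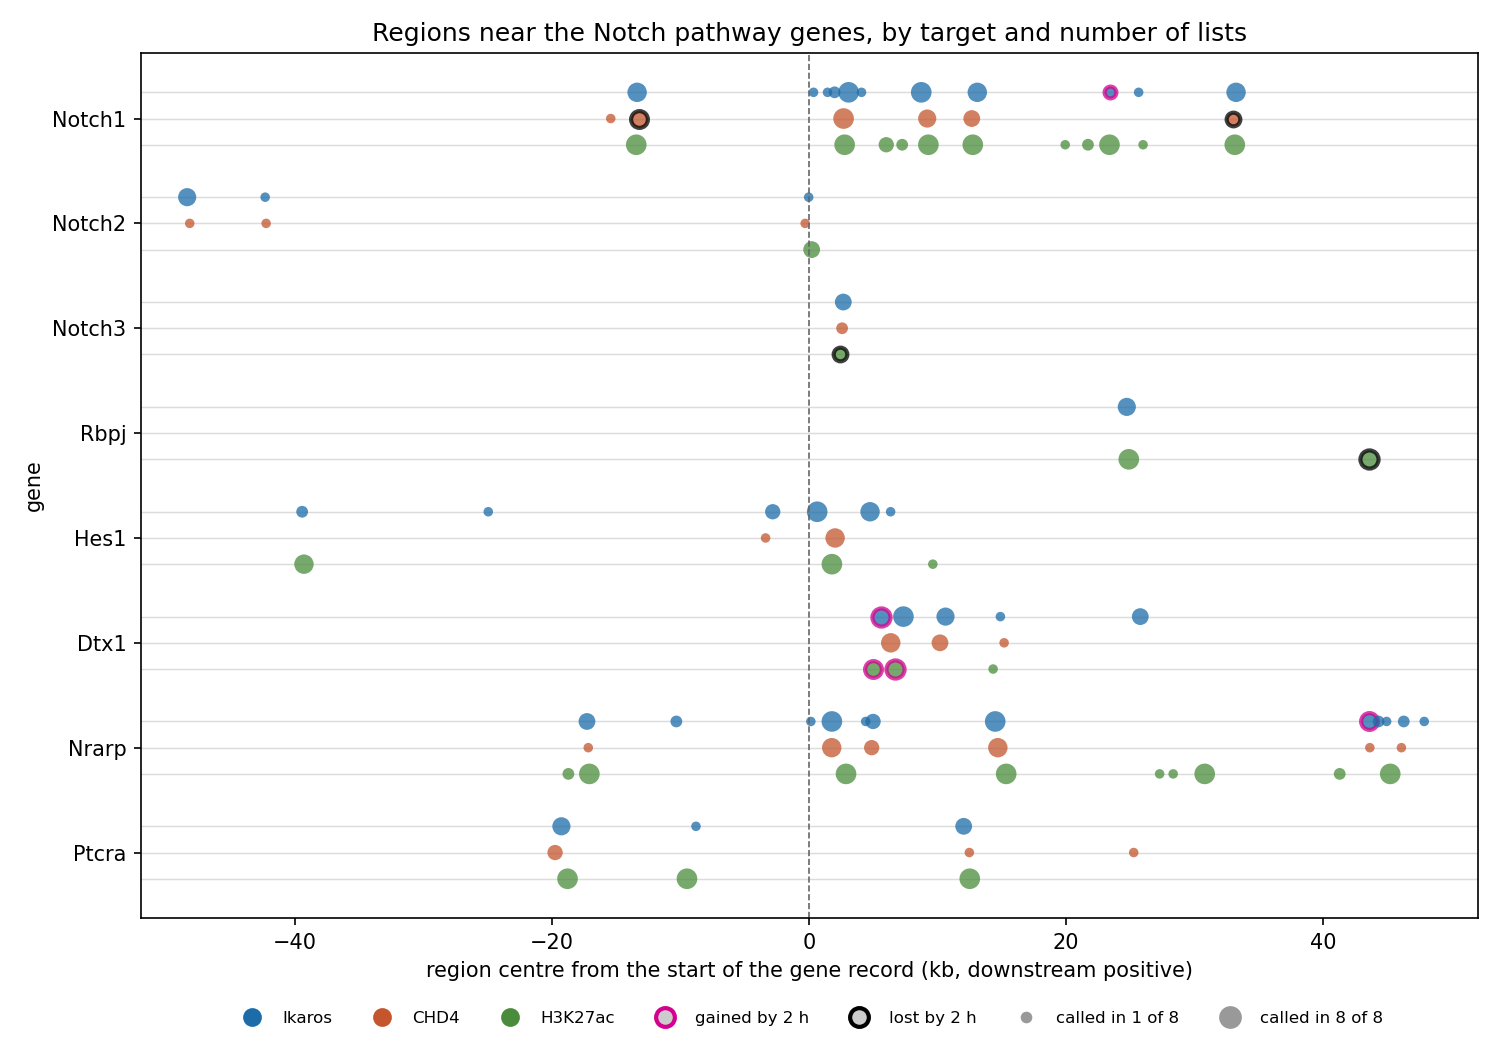
Centres of the 99 regions, in kb from the TSS of the gene record (downstream positive), for each gene and target. Point size gives the number of lists, rings mark regions gained or lost by 2 h. The gained regions are in the windows of Dtx1, Notch1 and Nrarp, the last one 69 bp from the Tubb4b TSS. The lost ones are in those of Notch1, Notch3 and Rbpj.

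Ikaros was found near all 8 genes, including before 4-OHT. Notch1 had 11 Ikaros regions, Nrarp 12, Hes1 6 and Dtx1 5, whereas Notch2 and Ptcra had 3 each and Notch3 and Rbpj 1 each. Of 21938 genes with a TSS window, 63.1% had at least 1 Ikaros region within the same distance. Of the 42 regions, 6 (14.3%) were called in all 8 lists, against 9.66% of all Ikaros regions, and 14 of the 42 were called in a single list, as were 35.1% of all Ikaros regions. A CHD4 region overlapped 28 of the 42 (66.7%, against 54.6% of all Ikaros regions) and an H3K27ac region overlapped 33 (78.6%, against 87.4%). Both marks lay at each of the 6 all-list regions, as at 94.8% of such regions in the genome.

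The position of a start site depends on the annotation. The Notch1 gene record begins 12841 bp upstream of the RefSeq start, which lies inside an Ikaros region called in 7 lists. The Rbpj record begins 124194 bp upstream of the first RefSeq start. Near that start, outside the 50 kb window, an Ikaros region (chr5:53588502-53590715) was called in all 8 lists with folds over input of 9.85 and 10.3 at 0 h, 9.33 and 4.36 at 30 min, 10.8 and 7.73 at 1 h, and 7.01 and 7.36 at 2 h. At that Rbpj promoter, the folds at 30 min and 2 h were all below both 0 h folds, and the 1 h folds lay on either side of them. No test is reported for this region, which is outside the window. The libraries themselves differed. Over all Ikaros regions called in all 8 lists, the median folds were 5.82 and 6.87 at 0 h. They were 6.11 and 5.27 at 30 min, 6.82 and 6.67 at 1 h, and 5.57 and 6.40 at 2 h.

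The number of Ikaros peaks near the genes was higher at 1 h and 2 h than before. It was 25 and 20 at 0 h (22.5 ± 3.54, SD, n = 2), 21 and 11 at 30 min (16.0 ± 7.07), 30 and 29 at 1 h (29.5 ± 0.707) and 32 and 31 at 2 h (31.5 ± 0.707). All 4 later libraries were above all 4 earlier ones. Part of the rise lay in windows that also hold other coding TSSs. In the Nrarp window the numbers were 5 and 6 at 0 h and 10 and 9 at 2 h. In the Ptcra window they were 1 and 1, then 2 and 2. At Notch1 they were 7 and 6, then 8 and 7, and at Dtx1 3 and 2, then 4 and 4. At Hes1 they were 6 and 3, then 5 and 6, and at Rbpj 1 and 1, then 1 and 0. Spearman's rho with time was 0.830 over the 8 libraries (exact two-sided permutation p = 0.0198, adjusted over 3 targets p = 0.0595) and Pearson's r was 0.674 (exact permutation p = 0.0663, adjusted p = 0.199), or 0.447 without the 2 libraries at 2 h. The trend did not pass the adjustment. It did without 0 h replicate 1 (rho = 0.918, exact permutation, adjusted p = 0.0190), 0 h replicate 2 (rho = 0.863, adjusted p = 0.0476, exact) or 30 min replicate 2 (rho = 0.918, adjusted p = 0.0286, exact), and not without any 1 of the other 5 libraries (adjusted p = 0.0571 to 0.200, exact). Within 20 kb rho was 0.650 (exact permutation p = 0.110, adjusted p = 0.329). The 1 h and 2 h lists were also the longest Ikaros lists. Per 10000 peaks of a list, the counts were 32.0 and 21.0 at 0 h and 22.5 and 21.9 at 2 h, and rho was -0.146 (exact permutation p = 0.761). In lists of equal size they were 15 and 14 at 0 h and 18 and 15 at 2 h, and rho was 0.416 (exact permutation p = 0.314, adjusted p = 0.342).

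CHD4 peaks near the genes numbered 6 and 16 at 0 h, 14 and 11 at 30 min, 15 and 11 at 1 h, and 7 and 17 at 2 h, and the times overlapped. Spearman's rank correlation with time was 0.172 (exact permutation p = 0.692, adjusted p = 0.692) and r was 0.0719 (exact permutation p = 0.873, adjusted p = 0.873), or 0.245 without 2 h. H3K27ac peaks numbered 27 and 25 at 0 h, 30 and 21 at 30 min, 28 and 27 at 1 h, and 33 and 23 at 2 h. Spearman's rank correlation with time was 0.245 (exact permutation p = 0.568, adjusted p = 0.692) and r was 0.249 (exact permutation p = 0.566, adjusted p = 0.849), or 0.218 without 2 h. Neither number followed time beyond the spread between libraries.

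**Figure D2:**
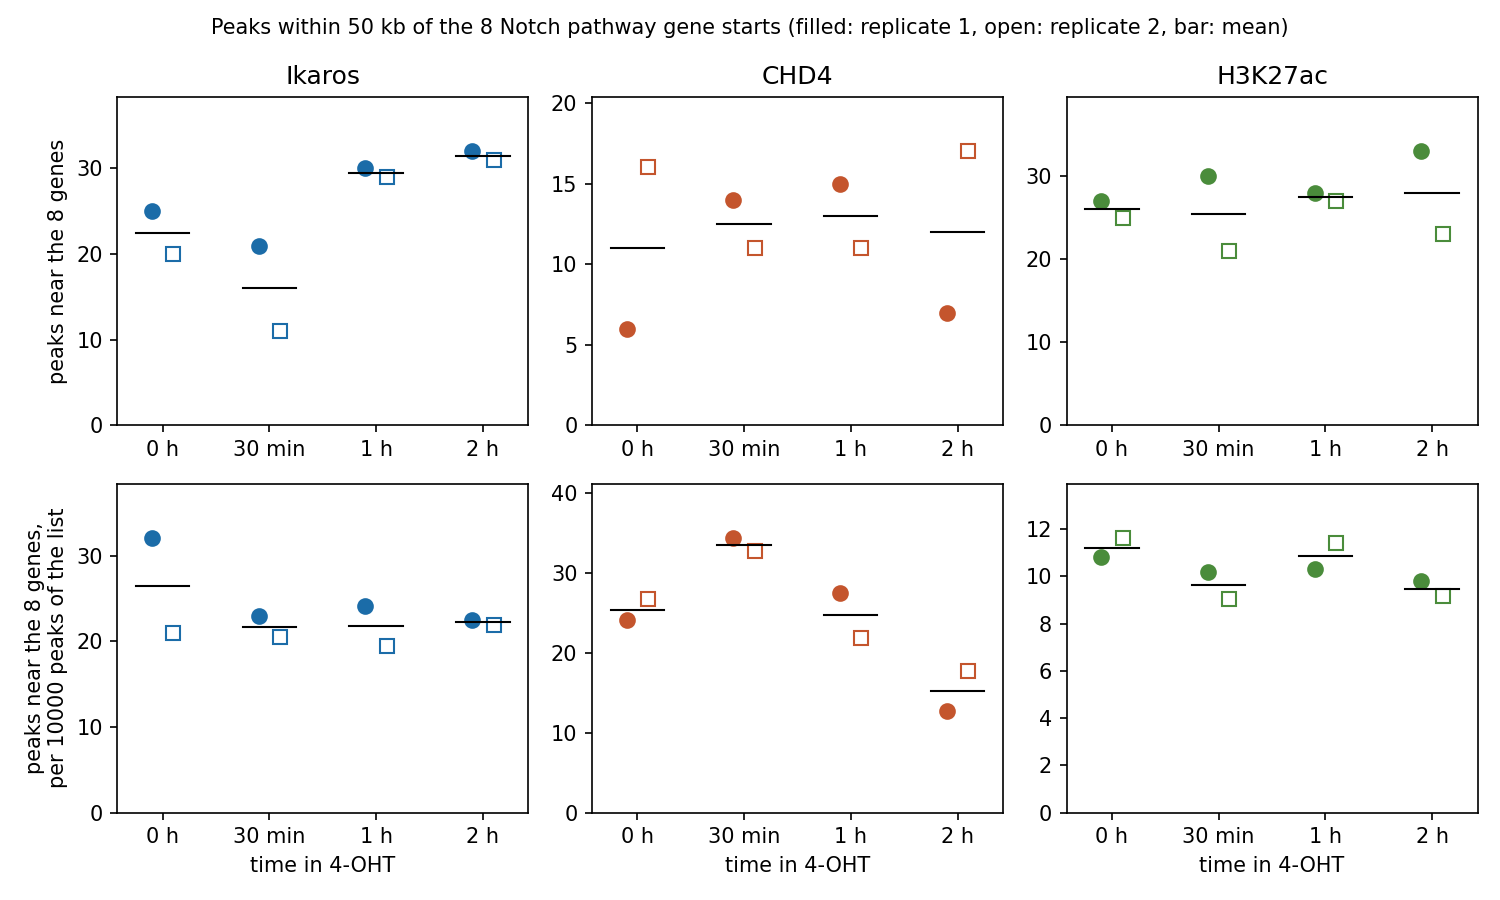
Peaks within 50 kb of the 8 genes in each library, as numbers (top) and per 10000 peaks of the list (bottom), against time in 4-OHT. Points are libraries, bars the mean of 2. Ikaros numbers stand at 29 to 32 at 1 h and 2 h and at 11 to 25 before, while its rates overlap.

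By 2 h, 3 of the 42 Ikaros regions near the genes (7.14%) were gained, meaning called in both 2 h lists and neither 0 h list, and 0 were lost. Among all Ikaros regions 12.0% were gained and 3.59% lost. Which share was the larger depended on the setting. With lists cut to equal size, 5 of 27 regions near the genes were gained (18.5%, against 7.63% of all regions) and 5 lost (18.5%, against 9.87%). Without 0 h replicate 1, 9 of 42 were gained (21.4%, against 14.8%). Without either 2 h library 8 were gained (19.0%, against 25.8% without 2 h replicate 1 and 26.1% without 2 h replicate 2). With any 1 of these 4 libraries left out, 1 or 2 were lost, against 4.97% to 8.34% of all regions. Of the 24 CHD4 regions 0 were gained (5.30% of all CHD4 regions) and 2 were lost (8.33%, against 1.45%). Of the 33 H3K27ac regions 2 were gained (6.06%, against 3.73%) and 2 were lost (6.06%, against 2.78%). The CHD4 counts and the H3K27ac gains, and the shares of all regions with them, turned on single lists. The CHD4 regions gained near the genes numbered 7 without 2 h replicate 1 (29.2%, against 34.0%), 4 without 0 h replicate 2 (16.7%, against 11.8%) 1 without 0 h replicate 1 (4.17%, against 5.94%) and 0 without 2 h replicate 2 (0%, against 18.6%). Without CHD4 0 h replicate 1, 6 were lost (25.0%, against 10.7%). Without H3K27ac 2 h replicate 2, 9 H3K27ac regions were gained (27.3%, against 24.8%). The lost H3K27ac regions stayed at 2 or 3 with any 1 library left out, while the share of all regions reached 6.70% without 0 h replicate 2, above the 6.06% near the genes. With 2 libraries against 2, an exact two-sided permutation p cannot go below 0.333, so these states carry no test.

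Dtx1, which encodes a ubiquitin ligase of the Notch pathway and is itself a Notch target, held 3 of the 5 gained regions. No list of any target had a peak within 1 kb of the TSS of its gene record. The 3 gained regions lay together in intronic sequence, and the gained Ikaros region (chr5:120705624-120707095) covered an internal TSS annotated for the gene. No Ikaros peak was listed there at 0 h. The folds were 3.39 and 3.69 at 30 min, 5.68 and 6.60 at 1 h, and 5.97 and 5.36 at 2 h. The region thus appeared in all 6 lists with 4-OHT, with the lower folds at 30 min.

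H3K27ac appeared beside it. The region chr5:120704721-120705800 was in neither 0 h list and had folds of 4.65 and 4.68 at 30 min, 4.79 and 5.71 at 1 h, and 5.15 and 3.43 at 2 h. The region chr5:120706698-120707286 was also absent at 0 h and had folds of 3.58 in 1 list at 30 min, 5.67 and 3.61 at 1 h, and 3.77 and 3.48 at 2 h. These are weak peaks: at 2 h they stood at mean percentile ranks of 39.1 and 28.8 within their lists. At these positions H3K27ac was listed after 4-OHT and not before.

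A neighbouring intronic Ikaros region (chr5:120703971-120705217) was already called at 0 h, with folds of 3.72 and 5.40. It had folds of 6.15 and 4.69 at 30 min, 7.67 and 7.78 at 1 h, and 6.49 and 6.57 at 2 h. Both 2 h folds were above both 0 h folds, but the log2 change of 0.63 ± 0.34 (SE) did not pass the test across all regions (limma, adjusted p = 0.290). A single CHD4 region overlapped both Ikaros regions (chr5:120704058-120707105). It was listed with folds of 3.30 in 1 list at 0 h, 3.25 and 4.05 at 30 min, 4.07 and 3.24 at 1 h, and 3.0 and 4.24 at 2 h. It was absent from 0 h replicate 1, the shortest CHD4 list, and its folds did not separate the times.

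**Figure D3:**
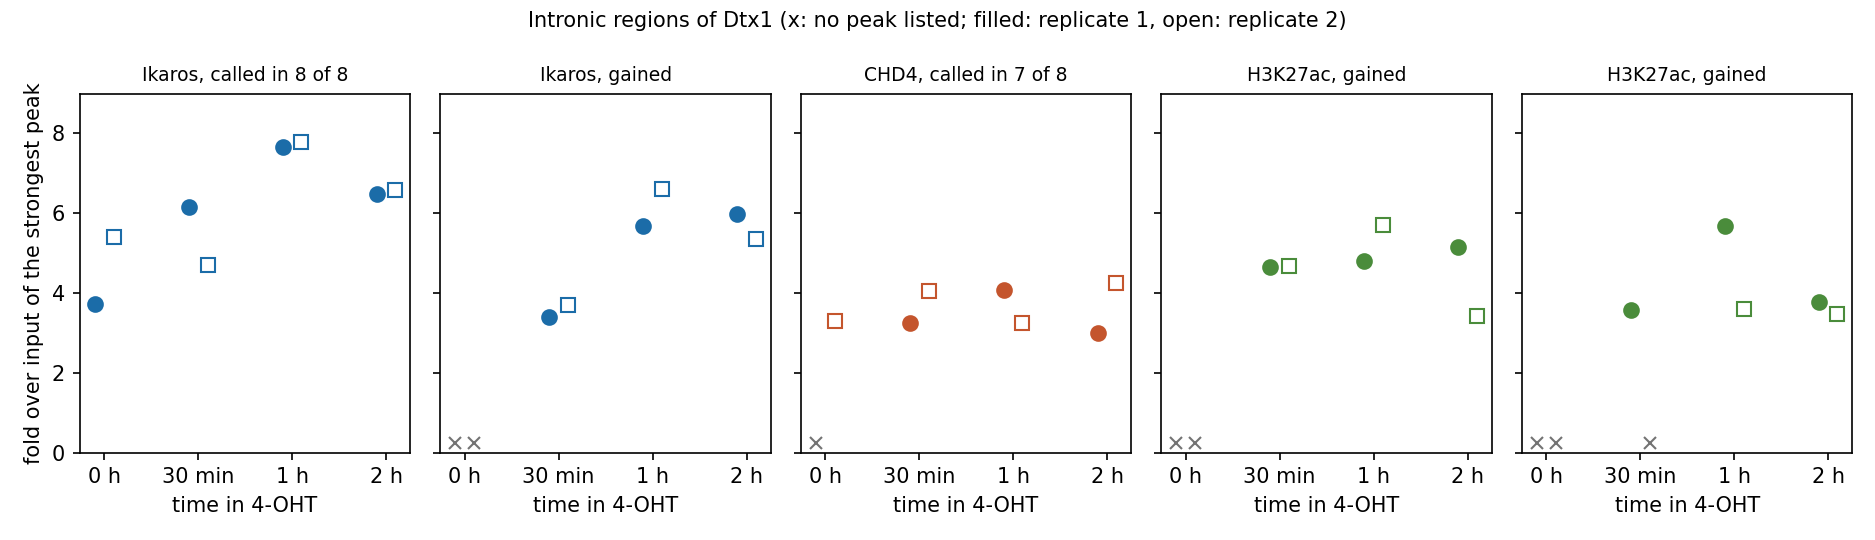
Fold over input of the strongest peak in each library at 5 regions within Dtx1, against time in 4-OHT. They are intronic at the summit, except the CHD4 region, whose strongest peak has its midpoint in an annotated exon. Crosses are libraries with no listed peak. The gained Ikaros region and the gained H3K27ac regions have no point at 0 h, while the Ikaros region called in 8 of 8 and the CHD4 region do.

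Notch1, the receptor used for T lineage commitment, had 11 H3K27ac regions, the most of the 8 genes. Near the genes 16 of 33 H3K27ac regions (48.5%) were called in all 8 lists, against 37.4% of all H3K27ac regions, and 6 of the 16 were at Notch1. Another 5 were in the Nrarp window and 3 in the Ptcra window. These included regions nearest to the TSS of Tor4a, Nelfb, Tubb4b, Cnpy3, 2310039H08Rik and Rpl7l1. The share was not tested. The region of highest 2 h rank among the Notch1 Ikaros regions (chr2:26507128-26508758) had folds of 9.26 and 11.2 at 0 h, 7.41 and 6.97 at 30 min, 5.32 and 6.22 at 1 h, and 4.76 and 7.68 at 2 h. All later folds were below both 0 h folds. The log2 change was -0.92 ± 0.34 at 1 h (limma, adjusted p = 0.0924) and -0.67 ± 0.34 at 2 h (limma, adjusted p = 0.253), so it did not pass the test. H3K27ac over the same intronic stretch (chr2:26505792-26508985) had folds of 22.4 and 20.7 at 0 h and 14.1 and 20.3 at 2 h, and its log2 change at 2 h relative to the median of all regions was 0.11 ± 0.32 (limma, adjusted p = 0.90).

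The gained Notch1 Ikaros region (chr2:26492969-26493482) lay in an intron and had folds of 3.64 and 4.80 at 2 h and no peak at any earlier time. H3K27ac was called over it in all 8 lists and CHD4 in none. The Ikaros region nearest the start of the Notch1 record (chr2:26516182-26516466) was in 1 list, at 0 h, with a fold of 5.39. A second all-list Ikaros region (chr2:26512783-26514401) had folds of 5.82 and 6.07 at 0 h and 7.53 and 4.79 at 2 h, which overlap. It coincided with the 1 CHD4 region near the genes that all 8 lists held (4.17% of 24, against 4.71% of all CHD4 regions).

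Both lost CHD4 regions were at Notch1. The one upstream of the gene (chr2:26529300-26530471) had folds of 3.67 and 3.19 at 0 h, 3.36 and 3.49 at 30 min and 3.72 in 1 list at 1 h, and was in no 2 h list. The intronic one (chr2:26483388-26483970) had folds of 3.16 and 2.73 at 0 h and 4.31 in 1 list at 30 min, and was in no list at 1 h or 2 h. Ikaros peaks were called at each in 7 lists, with 2 h folds of 4.22 and 4.56 upstream and 4.94 and 3.09 in the intron. At a -log10 q of at least 3, 6 CHD4 regions were left near the genes and 0 of them were lost, against 2.12% of all regions left.

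At the RefSeq start of Notch1, H3K27ac (chr2:26502467-26505399) was called in all 8 lists with folds of 8.39 and 8.75 at 0 h, 16.0 and 9.90 at 30 min, 7.77 and 7.81 at 1 h, and 5.25 and 6.34 at 2 h. Both 2 h folds were below both 0 h folds. The median fold over all H3K27ac regions called in all 8 lists moved the same way, from 12.6 and 10.5 at 0 h to 8.50 and 8.24 at 2 h. Relative to that median the log2 change was -0.11 ± 0.28 (limma, adjusted p = 0.890).

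Notch2 and Notch3, the other receptors, had few regions. At the Notch2 TSS, H3K27ac was called in 5 lists, with folds of 6.05 and 5.11 at 0 h, 5.75 in 1 list at 30 min, 4.97 in 1 list at 1 h and 3.96 in 1 list at 2 h, and Ikaros in 1 list, with a fold of 5.12 at 2 h. The Notch2 Ikaros region of highest 2 h rank among those in both 2 h lists had its centre at -48396 bp from the TSS, and was called in 6 lists. Its folds were 5.82 and 5.20 at 0 h, 3.39 in 1 list at 30 min, 5.26 in 1 list at 1 h, and 4.16 and 4.53 at 2 h, so both 2 h folds were below both 0 h folds, but with the 0 h and 2 h libraries alone the log2 change of -0.27 ± 0.29 did not pass the test (limma, adjusted p = 0.647). Neither Notch3 nor Ptcra had a peak of any target within 1 kb of an annotated TSS in any list.

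Notch3 held a single site, centred 2654 bp downstream of its TSS for Ikaros, in which all 3 targets were listed. Ikaros (chr17:32163960-32164437) had folds of 3.88 in 1 list at 0 h, 6.78 in 1 list at 30 min, 4.26 in 1 list at 1 h, and 4.16 and 6.40 at 2 h. H3K27ac (chr17:32164129-32164836) had folds of 5.32 and 4.41 at 0 h and 5.26 in 1 list at 30 min, and was in no list at 1 h or 2 h, so it was lost. CHD4 was listed there in 1 library at 0 h and 1 at 30 min, with folds of 3.90 and 3.51.

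Rbpj, which encodes the DNA-binding partner of the cleaved receptors, had H3K27ac at 2 intronic regions of its long transcripts within the 50 kb window, and a stronger region outside it, over the RefSeq start (chr5:53587997-53590729). That region was called in all 8 lists, with folds of 24.2 and 17.1 at 0 h, 29.9 and 17.8 at 30 min, 17.4 and 12.5 at 1 h, and 12.8 and 15.7 at 2 h. CHD4 was listed at the same start in 3 lists. Of the intronic regions, the lost region (chr5:53509282-53510161) had folds of 4.86 and 4.93 at 0 h, 6.31 and 3.91 at 30 min and 4.28 and 3.38 at 1 h, and was in no 2 h list. No Ikaros or CHD4 region overlapped it. The other (chr5:53490103-53491937) was called in all 8 lists, with folds of 11.5 and 7.71 at 0 h, 8.21 and 4.90 at 30 min, 4.86 and 5.13 at 1 h, and 3.42 and 4.43 at 2 h. Both 2 h folds there were below all folds at 0 h and 30 min, and the log2 change of -0.81 ± 0.29 (limma, unadjusted p = 0.0149, adjusted p = 0.189) did not pass the test. Ikaros was called at that second region (chr5:53490613-53491115) in 6 lists, with folds of 5.17 and 6.06 at 0 h and 3.90 in 1 list at 2 h.

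**Figure D4:**
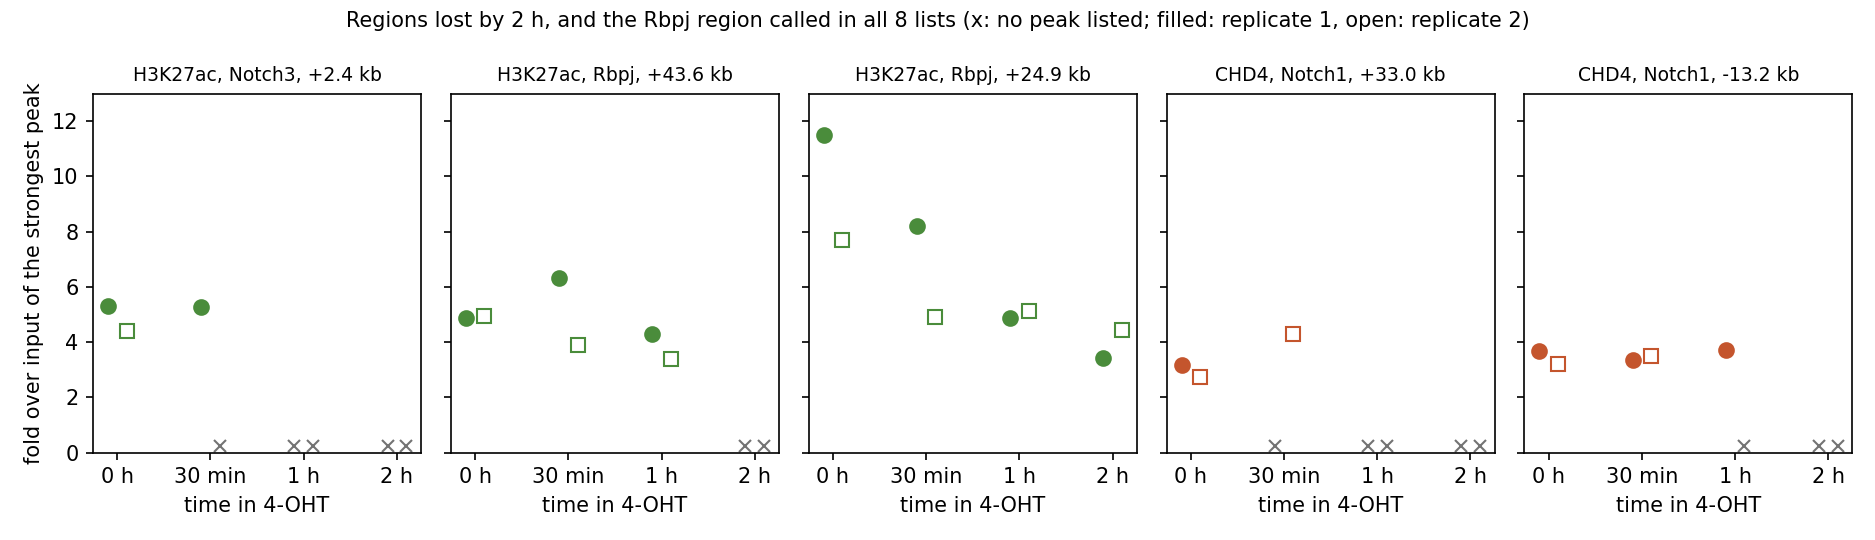
Fold over input in each library at the 4 regions lost by 2 h and at the Rbpj H3K27ac region called in all 8 lists, against time in 4-OHT. Crosses are libraries with no listed peak. The lost regions have no point at 2 h, and the all-list Rbpj region stands at 3.42 and 4.43 there against 11.5 and 7.71 at 0 h.

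Hes1, a transcriptional repressor switched on by Notch, had peaks of all 3 targets over its TSS. Ikaros (chr16:30062265-30067749) was called in all 8 lists, with folds of 7.33 and 6.41 at 0 h, 10.5 and 6.57 at 30 min, 8.81 and 7.44 at 1 h, and 7.01 and 8.57 at 2 h. The times overlapped, with a log2 change at 2 h of 0.26 ± 0.34 (limma, adjusted p = 0.709). It was among the stronger Ikaros regions, at a mean percentile rank of 94.8 at 2 h. H3K27ac over 11777 bp (chr16:30060264-30072040) had folds of 15.7 and 12.4 at 0 h, 21.3 and 17.4 at 30 min, 14.4 and 6.50 at 1 h, and 9.28 and 9.96 at 2 h, and its log2 change relative to all regions was -0.07 ± 0.28 (limma, adjusted p = 0.932). CHD4 (chr16:30061416-30071386) was called in 7 lists with folds of 3.15 to 4.03, and again only 0 h replicate 1 lacked it.

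Nrarp, a small ankyrin repeat protein that dampens Notch signalling as a target of it, had Ikaros and H3K27ac in all 8 lists across its gene body. Ikaros (chr2:25181114-25183934) had folds of 3.32 and 4.88 at 0 h, 3.96 and 6.37 at 30 min, 4.83 and 6.81 at 1 h, and 5.21 and 8.00 at 2 h. Both 2 h folds were above both 0 h folds, and the log2 change of 0.76 ± 0.36 had an unadjusted p of 0.0392 (limma, adjusted p = 0.219). H3K27ac (chr2:25180719-25186533) had folds of 15.0 and 8.21 at 0 h and 9.26 and 9.96 at 2 h, a log2 change of 0.26 ± 0.37 relative to all regions (limma, adjusted p = 0.791). CHD4 (chr2:25181112-25183913) was called in 7 lists with folds of 3.08 to 3.70, 0 h replicate 1 lacking it here too.

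The Nrarp window held 5 other coding TSSs, and some of its regions lay nearer to one of these than to Nrarp. The Ikaros region nearest the Nrarp TSS itself (chr2:25180767-25181008) was in 1 list only, at 1 h, with a fold of 3.41. The region of highest 2 h rank in the window (chr2:25193154-25197312) covered the TSS of Tor4a. It had folds of 7.33 and 5.72 at 0 h, 6.83 and 4.69 at 30 min, 9.09 and 9.10 at 1 h, and 8.05 and 10.2 at 2 h. Both 2 h folds were above both 0 h folds, and the log2 change of 0.57 ± 0.34 did not pass the test (limma, adjusted p = 0.350). The gained Ikaros region (chr2:25223970-25224633) lay in an intron of Tubb4b, 69 bp from the Tubb4b TSS, and had folds of 7.0 in 1 list at 30 min, 3.67 and 4.82 at 1 h, and 4.58 and 5.76 at 2 h. Ptcra, the pre-T cell receptor alpha chain, stood likewise among 4 other coding TSSs. All 3 of its Ikaros regions and all 3 of its H3K27ac regions had another gene's TSS as the nearest, namely that of Cnpy3, 2310039H08Rik or Rpl7l1. The Ikaros region of highest 2 h rank among those in both 2 h lists (chr17:46782339-46783643, nearest to Rpl7l1) had folds of 3.80 in 1 list at 0 h, 4.80 in 1 list at 30 min, 6.80 and 8.46 at 1 h, and 5.74 and 6.69 at 2 h. The Ikaros region nearest the Ptcra TSS (chr17:46772329-46772712) was in 1 list, at 2 h, with a fold of 3.67. The folds at Rpl7l1 were higher at 1 h and 2 h than in the lists that held the region earlier.

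At the 6 Ikaros, 1 CHD4 and 16 H3K27ac regions near the genes that all 8 lists held, the log2 fold was compared between times with limma, centred on each library's median and adjusted over all fitted regions. None of them passed the test at any time. At 2 h, 5.68% of 2305 Ikaros, 0.138% of 723 CHD4 and 0.428% of 14716 H3K27ac regions passed. At 1 h the shares were 6.46%, 0.138% and 0.217%, and at 30 min 3.08%, 0% and 0%. At an unadjusted p under 0.05, 1 of the 6 Ikaros, 0 of the 1 CHD4 and 2 of the 16 H3K27ac regions differed at 2 h, against 20.3%, 7.33% and 15.9% of all fitted regions. The 2 H3K27ac regions were the Rbpj region described above and one over the Rpl7l1 TSS in the Ptcra window, with a log2 change of 0.68 ± 0.31 (limma, adjusted p = 0.306). The median log2 change of the Ikaros regions was 0.41, beside 0.00 over all, and that of the H3K27ac regions was -0.09 beside 0.05. Neither median was stable. That of Ikaros was -0.04 over 10 regions with the 0 h and 2 h libraries alone (-0.02 over all), 0.17 without 30 min replicate 2 and 0.26 without 0 h replicate 2. That of H3K27ac was 0.05 without 2 h replicate 1 and -0.23 without 2 h replicate 2. Without centring, the H3K27ac medians were -0.55 near the genes and -0.41 over all regions, so H3K27ac changes are given relative to that shift.

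**Figure D5:**
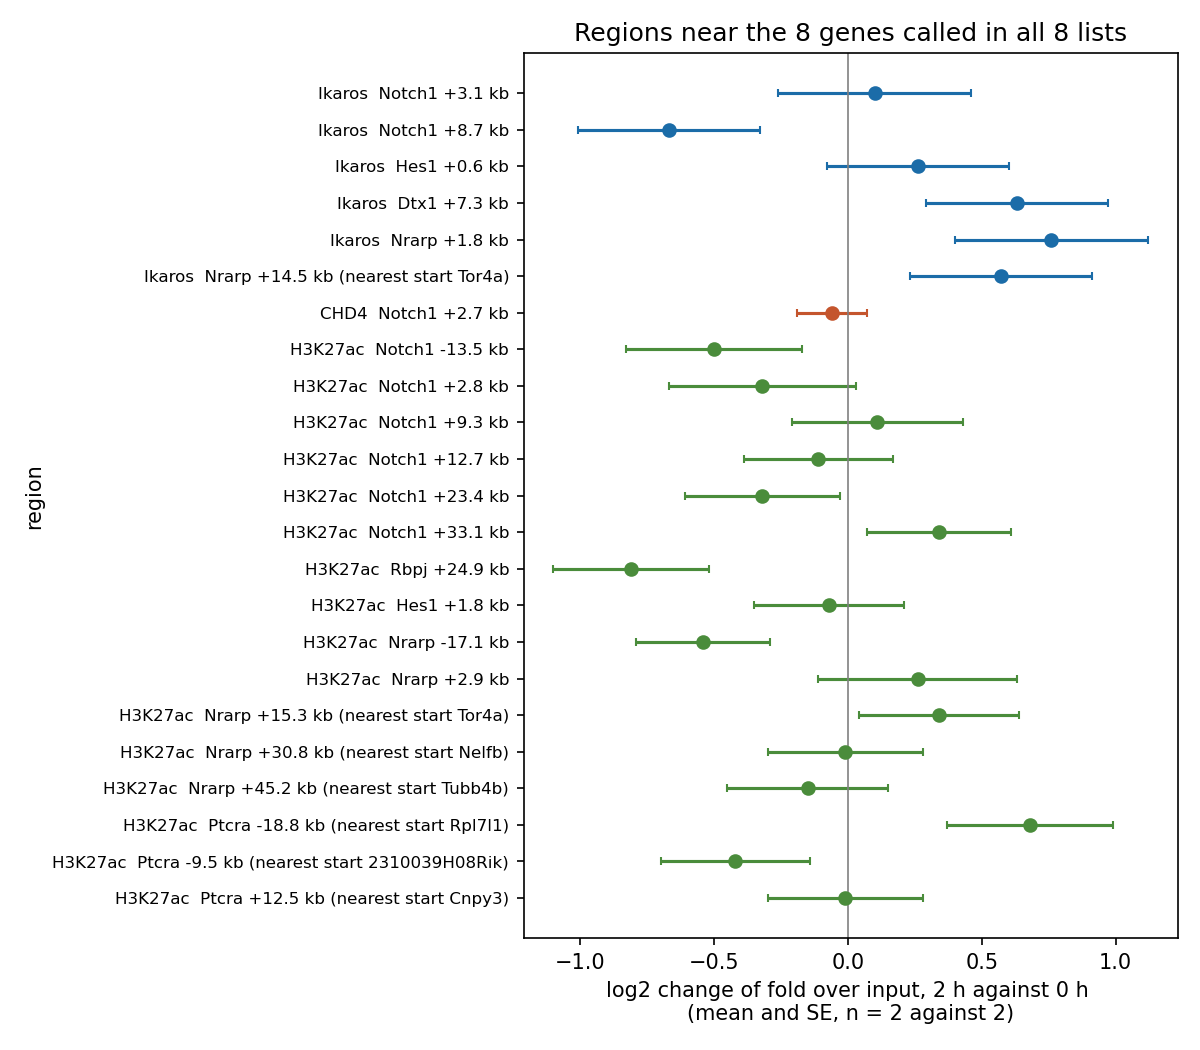
Log2 change of fold over input at 2 h against 0 h, relative to each library's median, at the 23 regions near the genes that all 8 lists held (n = 2 against 2). Bars are limma's SE, from 1 fit of the 8 libraries of a target, and not the spread of the libraries compared. None passed limma's adjusted test. The extremes are the Rbpj H3K27ac region at -0.81 and the Nrarp Ikaros region at 0.76.

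The wider pathway was described with 49 further genes, from ligands and receptor processing enzymes to cofactors and other targets. Of these, 42 (85.7%) had an Ikaros region within 50 kb, against 63.1% of all genes, 39 (79.6%) a CHD4 region, against 50.8%, and 44 (89.8%) an H3K27ac region, against 68.0%. A gained Ikaros region lay near 18 (36.7%, against 22.8% of all genes), among them the ligand Dll4, the receptor Notch4, the sheddase Adam10, the glycosyltransferases Lfng and Mfng, the coactivator Maml1 and the ubiquitin ligase subunit Fbxw7. A lost one lay near 7 (14.3%, against 6.60%), namely Dll1, Notch4, Lfng, Rfng, Pofut1, Dtx2 and Cdkn1a, so Notch4 and Lfng had both. The shares were not tested, and genes with close neighbours share regions.

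Gained CHD4 regions lay near 6 of the 49 (12.2%, against 6.90% of all genes), namely Aph1a, Psenen, Kat2b, Spen, Dtx3 and Hes7, and a lost one near Dtx3 only (2.04%, against 1.80%). Gained H3K27ac regions lay near Dtx2 and Cdkn1a (4.08%, against 7.30%), and lost ones near 6 (12.2%, against 6.54%), namely Dll4, Rfng, Pofut1, Dtx4, Il2ra and Tcf7. In limma's test, 3 of 32 fitted Ikaros regions near these genes were higher at 1 h than at 0 h and 0 were lower, and 0 of 32 passed at 30 min or 2 h. Of all 2305 fitted Ikaros regions, 39 (1.69%) were higher at 1 h and 110 lower. The 3 were 2 regions near the cell cycle inhibitor Cdkn1a and 1 near Maml3. The Maml3 region had folds of 3.88 and 5.64 at 0 h, 9.38 and 12.4 at 1 h and 6.46 and 8.21 at 2 h, a log2 change at 1 h of 1.11 ± 0.34 (limma, adjusted p = 0.0403). The Cdkn1a regions had log2 changes of 1.24 ± 0.35 and 1.18 ± 0.36 (limma, adjusted p = 0.0284 and 0.0387). None of the 6 CHD4 or 128 H3K27ac regions fitted near these genes passed at any time.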

How the data were processed

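HA-Ikaros, CHD4 and H3K27ac ChIP-seq of B3 cells (2 replicates, 4 times, 24 peak lists) was used. The 8 input libraries were not analysed on their own. The submitters' processing notes name Bowtie2 2.4.2, Picard 2.23.7, MACS2 2.2.7.1, deepTools 3.5.0 and mm10. The methods describe broad calling for CHD4 and narrow calling otherwise for 0, 1 and 2 h, and do not state the 30 min settings or a blacklist for the lists. The authors deposited 1 list per library, called against input per the list names. Deposited fold enrichment is a ratio over the local background, and deposited −log10 p and −log10 q served for filters, equal-sized lists and background coverage.

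Regions, TSSs (GENCODE gene records, or RefSeq where named) and trends were computed in Python 3.11.15, and log2 fold was tested with limma 3.58.1 (R 4.3.3) at regions called in all 8 lists of a target, with Benjamini-Hochberg adjustment at 0.05. A region takes the fold of its strongest peak. A region missing from a list was below that list's threshold and not shown to be unbound. Trends used exact permutation over 40320 pairings. Scripts were tested on simulated data. The text names every gene of the set, the Ikaros region nearest each TSS or of highest 2 h rank, regions gained, lost or past the test, and H3K27ac over the TSS. The RefSeq table used here was matched for 7 of the genes, and no RefSeq start of Hes1 was used. Members, lists and tests were chosen with earlier results of these data known.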

Additional observations from a re-analysis of the deposited data

How the results depend on the processing

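At 2 h against 0 h, the only contrast refitted, no region near the 8 genes passed limma's test in these alternatives (no centring, percentile rank, 0 h and 2 h libraries alone, mean fold of at least 3, 20 kb, or 1 library left out, which gave 0 to 0). In some of them nothing passed anywhere. With percentile rank 0 of 2305 Ikaros, 0 of 723 CHD4 and 0 of 14716 H3K27ac regions passed. For H3K27ac 0 of 15451 passed with the 0 h and 2 h libraries alone, and 0 without any 1 library of 0 h or 2 h. Without centring 97 of 2305 Ikaros, 0 of 723 CHD4 and 368 of 14716 H3K27ac regions passed. Replicate numbers did not pair the samples (correlations of deviations -0.0474 to 0.176), and with the replicate block 0 regions near the genes passed for each target. Of all fitted regions, 164 of 2305 Ikaros, 2 of 723 CHD4 and 45 of 14716 H3K27ac regions passed with that block. Of the 72 alternative values with all libraries and the 72 with 1 left out, 53 and 54 kept direction, side of the threshold or count within 1.5 times. The cause was not tested for the rest.

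The Ikaros trend passed the adjustment with a fold of at least 3 (rho = 0.834, exact permutation, adjusted p = 0.0476) and with RefSeq starts, chosen after seeing the data (rho = 0.834, adjusted p = 0.0476), was 0.416 with lists of equal size, and turned to -0.146 per 10000 peaks of the list. With 1 library left out it ranged from 0.753 to 0.918 and passed in 3 cases, named above. The adjusted p was 0.0571 without 30 min replicate 1 and 0.190 to 0.200 without a 1 h or 2 h library (exact permutation). The CHD4 trend turned to -0.0745 with a fold of at least 3, -0.586 per 10000 peaks and -0.393 with lists of equal size, and ranged from -0.148 to 0.426 with 1 library left out. The H3K27ac trend was 0 within 100 kb and at a −log10 q of at least 3, -0.488 per 10000 peaks and -0.600 with lists of equal size, and ranged from -0.0370 to 0.611.

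Each count here is followed by the regions near the genes and the share of all regions. Gained Ikaros regions numbered 1 within 20 kb (of 28, 12.0%) and 5 with lists of equal size (of 27, 7.63%), or 3 to 9 with 1 library left out (of 42, 14.8% to 26.1%). Lost ones numbered 5 with lists of equal size (of 27, 9.87%), or 1 to 2 with 1 left out (of 42, 4.97% to 8.34%). Gained CHD4 regions numbered 0 to 7 with 1 left out (of 24, 5.94% to 34.0%). Lost ones numbered 1 within 20 kb (of 18, 1.45%), 0 at a −log10 q of at least 3 (of 6, 2.12%), 1 with a fold of at least 3 (of 21, 2.52%) and 1 with lists of equal size (of 14, 5.63%), or 2 to 6 with 1 left out (of 24, 1.78% to 10.7%). Gained H3K27ac regions numbered 1 with lists of equal size (of 24, 2.39%), or 2 to 9 with 1 left out (of 33, 4.19% to 24.8%). Lost ones numbered 1 within 20 kb (of 21, 2.78%), or 2 to 3 with 1 left out (of 33, 3.85% to 6.70%). The lists hold no read counts, the part of depth in the peak numbers was not tested, and a region missing from a list carries no level.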
